A study of Mus musculus with 6 samples.

Results

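The replication-dependent histone genes were examined in the whole brain of 6 mouse embryos. Members were all genes of the count table whose symbol begins with Hist1h, Hist2h, Hist3h or Hist4h, which gave 70 of 53801 genes. By the histone named in the symbol, 6 are genes of the linker histone H1, 20 of H2A, 19 of H2B, 12 of H3 and 13 of H4. Hist1h2aj and Hist1h2al, counted with H2A, and Hist3h2bb-ps, counted with H2B, are annotated as pseudogenes. By symbol, 56 belong to the Hist1 cluster on chromosome 13, 10 to the Hist2 cluster on chromosome 3, 3 to the Hist3 cluster on chromosome 11, and 1, Hist4h4, lies on chromosome 6. Hist1h2al, counted with Hist1, lies far from the others at chr13:51202727-51203065. The embryos were C57BL/6 mice at stage E16.5, obtained by mating Bahd1+/- animals. Bahd1-KO embryos (Bahd1-/-, n = 3) lacked BAHD1, a scaffold of chromatin-repressive complexes, and Bahd1-WT embryos (Bahd1+/+, n = 3) were wild type.

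Core histones H2A, H2B, H3 and H4 form the protein spool around which DNA is wound, and H1 binds the linker DNA between spools. Cells that copy their DNA need new histones in bulk, so these genes are expressed mainly in S phase, from many near-identical copies without introns. Most of their mRNAs end not in a poly(A) tail but shortly after a conserved hairpin, which the stem-loop binding protein SLBP recognises, and some of the genes can also give longer, polyadenylated mRNAs from a poly(A) signal further downstream, as known from differentiated cells.

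The 3′ ends were read from the GENCODE M21 annotation of GRCm38, because the libraries were made from polyadenylated RNA. A hairpin of 16 bases (a stem of 6, a loop of 4 and the closing stem) was found after the stop codon in 44 of the 70 gene models, in 6 forms. The form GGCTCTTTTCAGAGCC was carried by 26 members and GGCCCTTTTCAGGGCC by 7, all of them H4 genes. In the other 26 models the hairpin was not found, and many of these models stop at or near the end of the coding sequence. The members shown here are those with the highest counts or the largest contrast between embryos, with the hairpin in capitals and 5 bases of flank on each side. The 26 bases of Hist3h2a and Hist1h1e are identical.
Hist3h2a, chr11:58955167-58955192, plus strand: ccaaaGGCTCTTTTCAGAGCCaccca
Hist3h2ba, chr11:58949344-58949369, plus strand: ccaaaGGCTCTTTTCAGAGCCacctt
Hist1h1e, chr13:23621777-23621802, minus strand: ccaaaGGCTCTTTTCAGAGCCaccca
Hist1h1c, chr13:23739507-23739532, plus strand: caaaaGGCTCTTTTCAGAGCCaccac
Hist1h4d, chr13:23581945-23581970, plus strand: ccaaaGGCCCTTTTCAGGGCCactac
Hist1h4i, chr13:22040961-22040986, minus strand: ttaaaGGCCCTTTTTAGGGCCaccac
Hist4h4, chr6:136803993-136804018, minus strand: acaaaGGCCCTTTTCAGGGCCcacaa

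A poly(A) signal (AATAAA or ATTAAA ending within 40 bases of an annotated transcript end) was present in 17 members. The signals of 5 of them are shown in capitals, since the poly(A) selection of these libraries bears on exactly this end.
Hist3h2a, chr11:58956787-58956812, plus strand: gtatatgcccAATAAAataagagtac
Hist3h2ba, chr11:58949497-58949522, plus strand: taatggtattAATAAAtttggttcaa
Hist2h2be, chr3:96223707-96223732, plus strand: tattattattAATAAAgttaccgatt
Hist1h1c, chr13:23740332-23740357, plus strand: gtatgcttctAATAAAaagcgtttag
Hist1h4i, chr13:22040641-22040666, minus strand: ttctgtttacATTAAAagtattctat
In Hist3h2a the annotated transcript runs 1643 bases past the hairpin, in Hist1h1c 840 bases and in Hist3h2ba 169 bases. Hist1h1e and Hist1h4d have models that run 1153 and 770 bases past the hairpin without either signal at their ends. The signal is a match of letters and was not measured as a used end.

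In units of 1e6 counts, sequencing depth was 61.7 for replicate 1, 76.5 for replicate 2 and 78.9 for replicate 3 of Bahd1-KO, and 91.8, 81.6 and 91.3 for the same replicates of Bahd1-WT. Bahd1 had 2, 10 and 6 counts in the knockout embryos and 1971, 3102 and 3470 in the wild-type embryos, which matched the labels (log2 fold change -8.40, edgeR adjusted p = 0.0462). Bahd1-KO replicate 3 stood apart from the other 5 libraries. Ribosomal, mitochondrial and small RNA genes took 49.4% of its counts, against 3.11 to 6.28% in the others. The summed level of 7 neuronal markers was 1934 counts per 1e6, scaled by the trimmed mean of M-values (TMM), in this embryo and 8213 to 10021 in the others (6 of the 7 were lowest there, and Snap25 was highest). The 6 neural progenitor markers, all lowest there, summed to 156 against 762 to 981. Lung markers (5 genes) summed to 1257 against 13.7 to 26.6, heart markers (3 genes) to 109 against 0.488 to 1.57 and skeletal muscle markers (5 genes) to 63.2 against 1.79 to 10.4, and every gene of these 3 lists was highest there. Cartilage and bone markers summed to 57.0 against 10.9 to 33.4 and microglial markers to 52.2 against 31.5 to 40.1. By total counts the microglial sum of this embryo lay within the range of the others. Blood, skin and liver markers summed to 385, 4.87 and 8.91, within the range of the others. Among the other embryos, placenta markers summed to 7.76 in Bahd1-KO replicate 2 and to at most 0.0940 elsewhere. The neuronal, progenitor, lung, heart and skeletal muscle sums go against the brain label of Bahd1-KO replicate 3, so genotype comparisons are given with and without it. Fewer cells of a type cannot be told apart from less RNA per cell in these bulk samples.

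Few reads of these libraries came from the histone genes. Their counts summed to 4998, 7136 and 3841 in the Bahd1-KO embryos and to 7453, 5760 and 9001 in the Bahd1-WT embryos. Per 1e6 counts of the library this was 81.0 (95% Wilson interval 78.8 to 83.2), 93.3 (91.2 to 95.5) and 48.7 (47.1 to 50.2) in knockout replicates 1 to 3, and 81.2 (79.4 to 83.1), 70.6 (68.8 to 72.5) and 98.6 (96.6 to 100.7) in wild-type replicates 1 to 3. These intervals cover counting error only. Bahd1-KO replicate 3 had the lowest share of total counts, and the other 2 knockout embryos lay within the wild-type range. With TMM scaling, which corrects the library total for its composition, its sum was 71.2 per 1e6 and lay inside the 65.3 to 89.1 of the others.

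Detection was uneven among the members. No count was found for 14 of the 70 in any embryo (8 H2A, 4 H2B, 1 H3 and 1 H4 gene), while 56 had at least 1 count and 33 reached the sum of 10 counts needed for the test. With a floor of 3 counts, a count of 0 allowed up to 0.0327 to 0.0486 counts per 1e6, depending on the library. A count of 0 therefore does not exclude transcripts under that level. The copies differ in how much of their sequence can be told apart. Among all 65-base stretches of a member's transcripts, the median share found in no other annotated gene was 9.0% (range 0 to 80.1%) for the 14 genes without counts and 75.0% (10.3 to 100%) for the 33 tested. Hist2h2aa1 and Hist2h2aa2, copies of one H2A gene, had no such stretch and were at 0 in all 6 embryos. Values of the near-identical copies are therefore uncertain, and a count of 0 there does not separate a silent gene from reads that fit several copies.

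Counts also differed with the extent of the annotated model. The 22 members whose model ends within 100 bases of the hairpin summed to 7 to 40 counts in the 5 embryos other than Bahd1-KO replicate 3, and to 91 counts in that embryo. The 22 members whose model runs further past the hairpin summed to 3328 to 6724 counts in those 5 embryos and to 1853 in Bahd1-KO replicate 3. Most of the sum in those 5 embryos came from Hist3h2a (2409 to 4180 counts), which had 531 in Bahd1-KO replicate 3. Hist3h2ba had 263 to 1758 and 35. The lower sum of Bahd1-KO replicate 3 came from these genes and did not hold for the rest of the class. The classes also differed in model length and in unique sequence (median 40.2% and 79.6%). The count table gives 1 number per gene, so reads before and after the hairpin could not be separated.

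Most of the counts came from 3 genes, each with a poly(A) signal at its annotated end. Hist3h2a (H2A; ENSMUSG00000078851), Hist2h2be (H2B; ENSMUSG00000068854) and Hist3h2ba (H2B) took 79.8 to 86.4% of the histone counts in 5 embryos and 34.2% in Bahd1-KO replicate 3. The share of the Hist1 cluster was 12.6 to 18.5% in the 5 embryos and 61.2% in Bahd1-KO replicate 3. The 17 genes with a poly(A) signal summed to 70.2, 77.8 and 38.7 TMM-scaled counts per 1e6 in knockout replicates 1 to 3, and to 70.9, 59.4 and 82.6 in wild-type replicates 1 to 3. The 53 genes without a signal summed to 6.12, 6.70 and 32.5 in the knockout embryos and to 6.97, 5.97 and 6.47 in the wild-type embryos, and Hist1h2bc was the largest among them. Without Hist1h2bc, the remaining 52 genes summed to 1.83, 1.99 and 13.9 in Bahd1-KO and to 1.69, 1.92 and 2.28 in Bahd1-WT. Apart from Bahd1-KO replicate 3, the knockout sums lay within the wild-type range in both classes. That embryo had the lowest sum of the first class and the highest of the second.

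**Figure D1:**
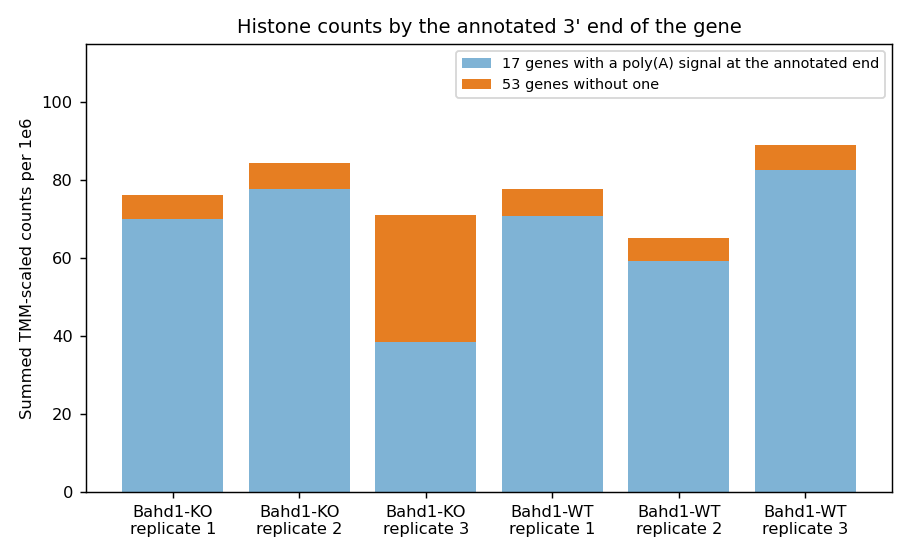
Bars give the summed TMM-scaled counts per 1e6 of the histone genes in each of the 6 embryos, split into the 17 genes with a poly(A) signal at the annotated end and the 53 without. Genes without a signal add 5.97 to 6.97 in 5 embryos and 32.5 in Bahd1-KO replicate 3.

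By histone type, H2A and H2B genes took most of the counts and H3 genes the fewest. H2A genes summed to 41.4, 44.0 and 11.2 TMM-scaled counts per 1e6 in knockout replicates 1 to 3 and to 44.1, 27.8 and 41.9 in the wild types. For H2B the sums were 30.1, 35.5 and 38.9 in the knockouts and 28.9, 29.9 and 40.05 in the wild types. The H2A sum was lowest in Bahd1-KO replicate 3, and the H2B sums of the genotypes overlapped. By total counts, the H2B sum of Bahd1-KO replicate 3 was the lowest at 26.6 per 1e6, against 30.1 to 44.3 in the others. H1 genes summed to 2.40, 2.65 and 13.2 in the knockouts and to 2.85, 5.31 and 3.83 in the wild types. The H4 sums were 1.80, 1.97 and 7.04 in the knockouts and 1.59, 1.95 and 2.67 in the wild types, and the H3 sums 0.580, 0.438 and 0.871 in the knockouts and 0.418, 0.386 and 0.624 in the wild types. In these 3 types Bahd1-KO replicate 3 was the highest embryo, but for H3 this turned with the scaling. Per 1e6 total counts its H3 sum was 0.595, below Bahd1-KO replicate 1 (0.616) and Bahd1-WT replicate 3 (0.690).

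**Figure D2:**
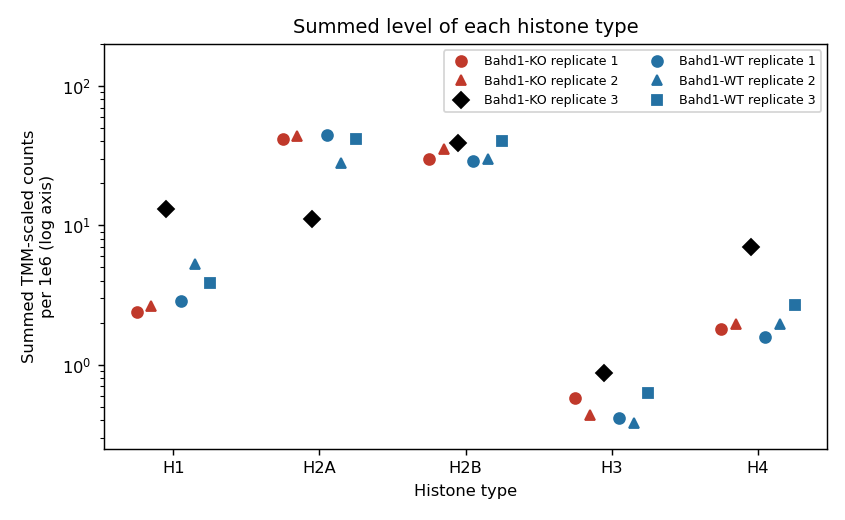
Points give the summed TMM-scaled counts per 1e6 of each histone type in each embryo on a log axis. Bahd1-KO replicate 3 (diamonds) is highest for H1, H4 and, on this scale though not by total counts, H3, and lowest for H2A, where it has 11.2 against 27.8 to 44.1 in the others.

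The genotype comparison asked whether the loss of BAHD1 changed the level of the histone genes. No member passed the adjusted threshold of 0.05 in the edgeR quasi-likelihood test on all 6 embryos. The smallest edgeR adjusted p of a member was 0.696. Of 24739 genes tested, 1 passed (0.00404%), the knocked-out gene Bahd1 itself. DESeq2 also called 0 members and had 0 at an unadjusted p under 0.05. It gave no adjusted p for Hist1h1e (log2 fold change 3.11), so that gene could not be called there. At an unadjusted p under 0.05, edgeR gave 0 of 33 members, with 4.67% of all genes as background. The log2 fold change (Bahd1-KO over Bahd1-WT) was above 0 in 28 of 33 members and in 53.8% of all genes, and its median was 1.14 over the members and 0.06 over all genes. These values rested on 1 embryo, and 7 of the 33 reached the count minimum through its counts alone. Without Bahd1-KO replicate 3, 26 members could be tested, their median was 0.08 (all genes -0.01), 16 were above 0 and 10 below (49.2% of all genes were above 0), and 0 were under an unadjusted p of 0.05 in edgeR (1.48% of all genes) or called (0.0171%). Of the 5 genes listed for known tailed mRNA (Hist1h1c, Hist1h2bc, Hist2h2be, Hist2h2aa1 and Hist4h4), 4 had counts, with a median of 0.47 on all embryos and -0.37 without that one. DESeq2 without that embryo gave 1 member under an unadjusted p of 0.05, Hist1h1c, and called none.

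The genotypes did not overlap in 2 of 33 members, both higher in Bahd1-KO, as 4.47% of all genes did (6.71% with either genotype higher). These were Hist1h2ad and Hist1h2ai, H2A copies named after their values were seen. Hist1h2ad had 2, 1 and 4 counts in the knockouts and 1, 1 and 1 in the wild types, and Hist1h2ai had 1, 5 and 2 in the knockouts and 0, 1 and 1 in the wild types. None of these counts exceeded 5, and both genes are among the 7 that had under 10 counts outside Bahd1-KO replicate 3. No member was lower in all Bahd1-KO embryos (2.24% of all genes were).

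**Figure D3:**
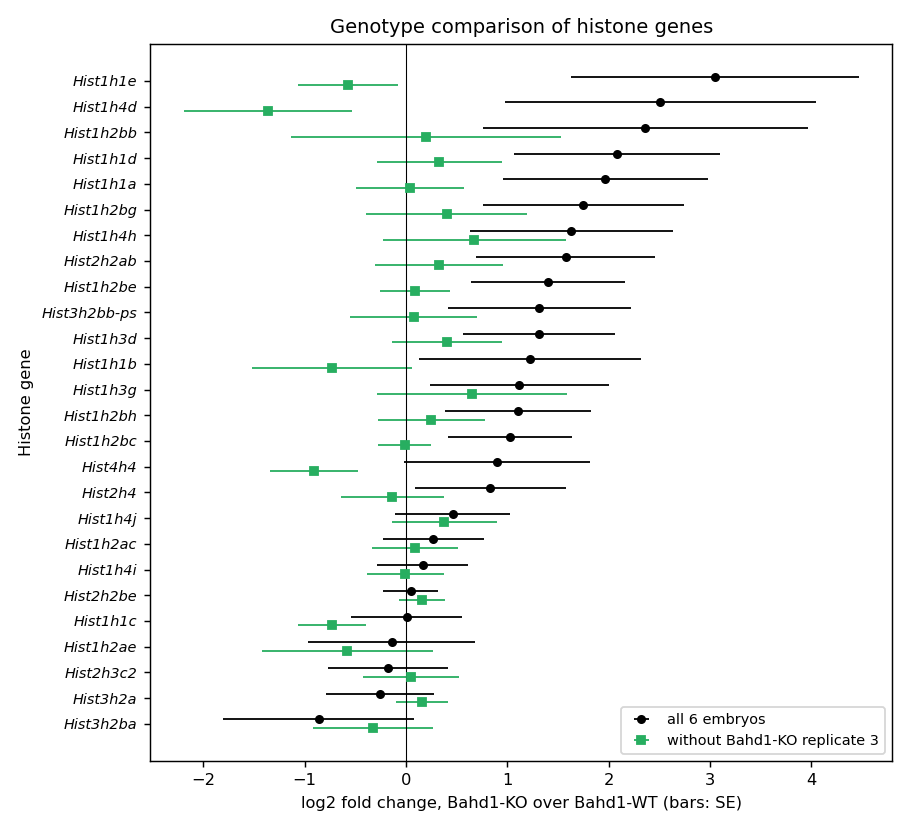
Points give the edgeR log2 fold change of the 26 members with at least 10 counts in the 5 other embryos, with SE bars, for all 6 embryos (circles) and without Bahd1-KO replicate 3 (squares). Without that embryo the values lie between -1.36 and 0.68. The 5 H1 genes, all above 0 with it, then have 2 above 0 and 3 below (median -0.57).

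Among the H2A genes, Hist3h2a had the highest counts. Its TMM-scaled counts per 1e6 were 40.8, 43.3 and 9.84 in knockout replicates 1 to 3 and 43.4, 27.3 and 41.4 in wild-type replicates 1 to 3. Bahd1-KO replicate 3 was the low embryo and the rest of the knockouts lay within the wild-type range, giving a log2 fold change of -0.26 (SE 0.535, edgeR adjusted p = 0.875) with all embryos and 0.16 without that one. Its model (chr11:58954685-58956830) overlaps Trim17 on the same strand. Hist1h2ac followed far below with 0.412, 0.474 and 0.612 in the knockouts and 0.616, 0.295 and 0.327 in the wild types. These ranges overlapped, and the log2 fold change was 0.27 (SE 0.499, edgeR adjusted p = 0.858), or 0.09 without Bahd1-KO replicate 3. Hist2h2aa1, an H2A gene known for polyadenylated mRNA, was listed at 0 in every embryo, as above.

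Of the H2B genes, Hist2h2be was the most even across embryos. It had 20.7, 16.2 and 13.8 TMM-scaled counts per 1e6 in the knockouts and 16.6, 14.9 and 17.4 in the wild types. The genotypes overlapped, with a log2 fold change of 0.05 (SE 0.270, edgeR adjusted p = 0.956), the smallest SE among the members described here, and of 0.16 without Bahd1-KO replicate 3. All of its 65-base stretches were unique to it. Hist3h2ba varied most among the abundant genes. Its values were 4.01, 13.6 and 0.649 in the knockouts and 5.96, 9.90 and 17.4 in the wild types, so that replicate 1 was the lowest wild-type embryo and lower than replicate 2 in the knockouts too. The log2 fold change was -0.86 (SE 0.945, edgeR adjusted p = 0.761) and -0.33 without Bahd1-KO replicate 3.

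Hist1h2bc and Hist1h2be are H2B genes of the Hist1 cluster with long models. Hist1h2bc is annotated as spliced, with exons at chr13:23684199-23684621 and chr13:23692176-23692908 on the plus strand, and its exons hold no hairpin. It had 4.29, 4.71 and 18.6 TMM-scaled counts per 1e6 in the knockouts and 5.27, 4.05 and 4.20 in the wild types. Hist1h2be had 0.794, 0.533 and 3.56 in the knockouts and 0.773, 0.522 and 0.545 in the wild types. In both genes 5 embryos lay close together and Bahd1-KO replicate 3 far above. Their log2 fold changes were 1.03 (SE 0.611) and 1.403 (SE 0.761), both with an edgeR adjusted p of 0.696, and they came to -0.01 and 0.09 without that embryo.

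The H1 genes Hist1h1c and Hist1h1e encode the somatic linker histones often named H1.2 and H1.4. Hist1h1c had 2.05, 2.29 and 6.45 TMM-scaled counts per 1e6 in the knockouts and 2.57, 4.76 and 3.39 in the wild types. On this scale Bahd1-KO replicate 3 was the highest of the 6 embryos and knockout replicates 1 and 2 were the lowest. The log2 fold change was therefore 0.01 (SE 0.547, edgeR adjusted p = 0.997) with all embryos and -0.73 without the third knockout (edgeR adjusted p = 0.981). By total counts Bahd1-WT replicate 2 was the highest, with 420 counts against 348 in Bahd1-KO replicate 3 (depths 81.6 and 78.9 in units of 1e6). Hist1h1e had 10, 10 and 256 counts in the knockouts and 15, 26 and 15 in the wild types. The single high embryo set the log2 fold change of 3.05 (SE 1.42, edgeR adjusted p = 0.696), which was -0.57 without it. Hist1h1e and Hist1h2be overlap on the same strand in the annotation, so reads in the shared stretch could not be assigned to one of them.

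The remaining H1 genes, named after their values were seen, were near the detection limit outside Bahd1-KO replicate 3. Hist1h1a had 4, 7 and 38 counts in the knockouts and 6, 6 and 8 in the wild types. Hist1h1b had 3, 3 and 22 in the knockouts and 2, 9 and 8 in the wild types. Hist1h1d had 6, 10 and 47 in the knockouts and 4, 6 and 14 in the wild types. All 3 were highest in Bahd1-KO replicate 3, and in Hist1h1a the other 5 embryos stayed between 4 and 8 counts. Hist1h1t, the testis linker histone, had at most 1 count in any embryo, and the testis genes Hist1h2aa and Hist1h2ba were at 0 in all 6.

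For H4, Hist1h4i was the most abundant member with 1.18, 1.36 and 1.72 TMM-scaled counts per 1e6 in the knockouts and 0.940, 0.987 and 1.87 in the wild types. The genotypes overlapped (log2 fold change 0.17, SE 0.448, edgeR adjusted p = 0.902, and -0.01 without Bahd1-KO replicate 3). Hist2h4 had 0.382, 0.178 and 1.06 in the knockouts and 0.198, 0.454 and 0.248 in the wild types, with a log2 fold change of 0.83 that was -0.13 without that embryo. Hist4h4 had 8, 8 and 50 counts in the knockouts and 19, 21 and 17 in the wild types. Both were highest in Bahd1-KO replicate 3, and the other 2 knockouts lay below all wild-type embryos in Hist4h4, whose log2 fold change was 0.90 (SE 0.917, edgeR adjusted p = 0.744) with that embryo and -0.91 without it (adjusted p = 0.981). The H4 genes Hist1h4d and Hist1h4n, chosen after their values were seen, were also far higher in one embryo. Hist1h4d had 1, 6 and 107 counts in the knockouts and 4, 12 and 18 in the wild types, with a log2 fold change of 2.51 (SE 1.54) that became -1.36 (SE 0.833) without Bahd1-KO replicate 3. Hist1h4n had 15 counts in Bahd1-KO replicate 3 and 0 in each of the other 5 embryos.

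The H3 genes were the least abundant. Hist2h3c2 had 19, 19 and 7 counts in the knockouts and 23, 12 and 36 in the wild types, and Hist1h3d had 11, 10 and 28 in the knockouts and 15, 9 and 6 in the wild types. Both overlapped between the genotypes, and Bahd1-KO replicate 3 was the lowest embryo for the first and the highest for the second. Their log2 fold changes were -0.18 (SE 0.592) and 1.31 (SE 0.754), with edgeR adjusted p of 0.921 and 0.696, and 0.05 and 0.40 without that embryo.

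**Figure D4:**
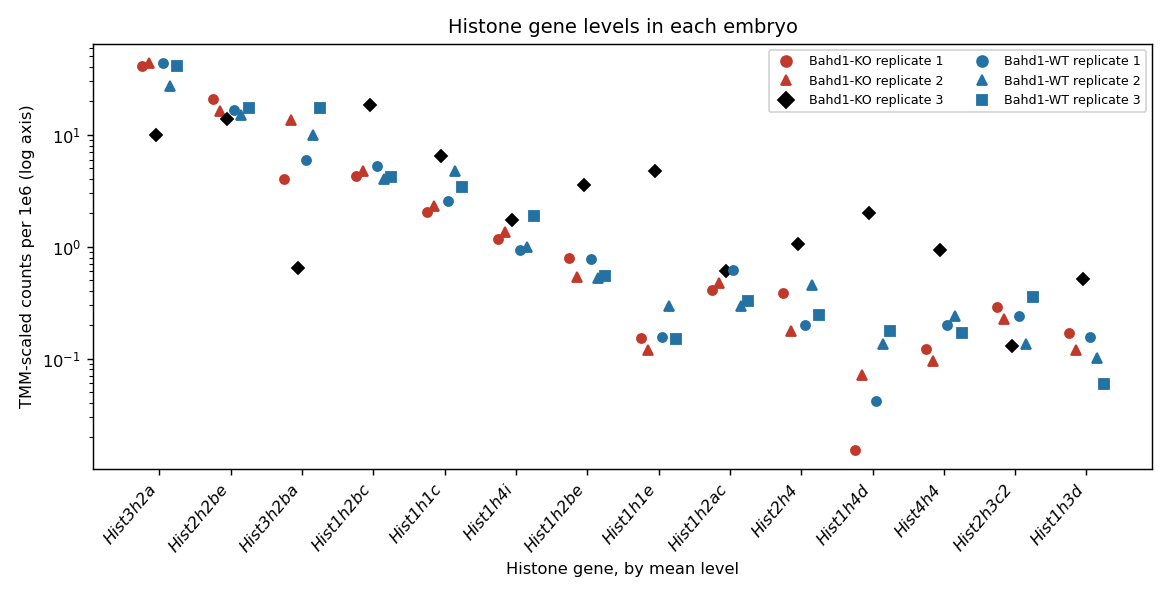
Each point is the TMM-scaled count per 1e6 of a gene in one embryo, on a log axis, for 14 histone genes ordered by mean level (the 13 named members with counts, and Hist1h4d). Bahd1-KO replicate 3 (diamonds) is the lowest embryo in Hist3h2a, Hist2h2be, Hist3h2ba and Hist2h3c2 and the highest in 8 of the others (Hist1h2bc, Hist1h1c, Hist1h2be, Hist1h1e, Hist2h4, Hist1h4d, Hist4h4 and Hist1h3d). For Hist1h1c this holds on this scale but not by total counts.

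Compared per length, Hist3h2a and Hist3h2ba were the highest members. As the median of the 5 embryos other than Bahd1-KO replicate 3, the level per kilobase of exon was 19.3 TMM-scaled counts per 1e6 for Hist3h2a, 16.1 for Hist3h2ba, 6.35 for Hist2h2be, 3.71 for Hist1h2bc, 1.65 for Hist1h1c and 1.62 for Hist1h4i. Over these 5 embryos the range of Hist3h2ba overlapped those of both its neighbours in this order, Hist1h1c and Hist1h4i overlapped each other, and Hist2h2be lay above Hist1h2bc in each embryo. All other members had a median below 0.35 on this scale.

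Embryos were then compared with one another, as the level in each divided by the median of the other 5, for the 26 members with at least 10 counts outside Bahd1-KO replicate 3. That embryo was the highest in 18 of the 26 and the lowest in 4, while over all genes chosen in the same way it was the highest in 34.9% and the lowest in 38.2%. The median ratio was 4.36 for the members and 0.917 for all genes, whose 10th and 90th percentiles were 0.206 and 5.48, so the members' median lay inside that range. The ratio was highest for Hist1h1e (31.1) and Hist1h4d (27.9). Among the members it was lowest for Hist3h2ba (0.0655), Hist3h2a (0.238), Hist2h3c2 (0.540) and Hist2h2be (0.830). When libraries were scaled by total counts in place of TMM, the median ratio was 2.73, with 19 of 26 above 1, and Hist1h4i (0.944), Hist1h2ac (0.956) and Hist1h2ae (0.969) moved below 1. Hist1h1c and Hist1h3g were then no longer highest in Bahd1-KO replicate 3.

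The ratio varied with the annotated 3′ end, gene by gene. Of the 15 members without a poly(A) signal, 13 were highest in Bahd1-KO replicate 3, 1 was lowest and 1 in between, with a median ratio of 5.77. Of the 11 with a signal, 5 were highest, 3 lowest and 3 in between, with a median of 1.62. By cluster, 14 of 18 Hist1 members were highest in this embryo and none was lowest, while 2 of 3 Hist3 members were lowest. The exceptions ran both ways. Hist1h4h (8.87), Hist1h2be (6.54), Hist4h4 (5.51), Hist2h4 (4.27) and Hist1h1c (2.51) carry a signal and were highest there with TMM scaling, Hist1h1c not by total counts. Hist2h3c2 (0.540) carries none and was low. The classes of end and of cluster overlap in their members, and this contrast was noticed in one library, so it is a description only.

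**Figure D5:**
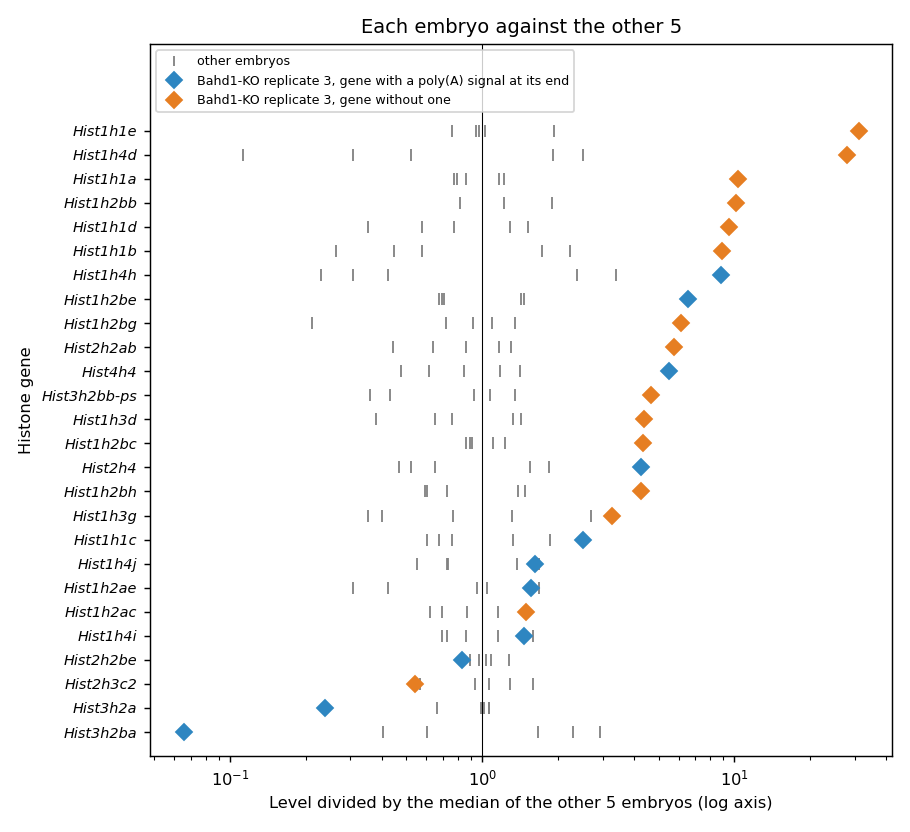
For 26 histone genes, diamonds give the level in Bahd1-KO replicate 3 divided by the median of the other 5 embryos (log axis), coloured by whether the gene has a poly(A) signal at its annotated end, and grey ticks give the same ratio for each other embryo (an embryo at 0 is not drawn). Diamonds run from 0.0655 for Hist3h2ba to 31.1 for Hist1h1e, most of them outside the ticks.

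RNAs outside the histone genes that lack a tail were also examined. Of the 8 listed, 6 had enough counts for the genotype test and none passed it. In edgeR, 4 were higher in Bahd1-KO at an unadjusted p under 0.05, where 4.67% of all genes were under that p in either direction. The small nuclear RNA Rn7sk, which holds back transcription elongation, had 22.9, 15.7 and 3487 TMM-scaled counts per 1e6 in the knockouts and 7.33, 7.51 and 9.25 in the wild types. Gm42418, annotated over ribosomal RNA sequence, had 2740, 3564 and 330302 in the knockouts and 1154, 1368 and 2262 in the wild types. In both, all 3 knockouts lay above all wild types, as in 4.47% of all genes tested, and Bahd1-KO replicate 3 was far above the rest. Rny1, a Y RNA, had 1.48, 1.34 and 174 in the knockouts and 0.345, 0.238 and 0.297 in the wild types. Rny3, another, had 1.30, 1.16 and 77.0 in the knockouts and 0.637, 0.227 and 0.248 in the wild types. The genotypes did not overlap in these Y RNAs either. Without Bahd1-KO replicate 3 the log2 fold changes were 1.24 for Rn7sk, 0.97 for Gm42418, 2.24 for Rny1 and 1.71 for Rny3, with edgeR adjusted p of 0.981, 0.981, 0.342 and 0.981. Gm26917, among the 3 highest of this list, had 2.75, 12.7 and 199 in the knockouts and 2.59, 12.9 and 10.96 in the wild types. Its level in Bahd1-KO replicate 3 was 18.2 times the median of the others, below the ratios of Hist1h1e and Hist1h4d, while those of the 4 RNAs before it ran from 121 to 505. Over the 6 tested, the median log2 fold change was 6.14 with all embryos. It was 1.24 without Bahd1-KO replicate 3, where Rpph1 was left out because it reached the count minimum through that embryo alone. Whether the untailed RNA in these libraries has a part in their histone counts was not tested.

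Most of the S-phase genes listed were highest in the same embryo on the TMM scale. Of 22 genes of DNA replication and the cell cycle, 14 were highest in Bahd1-KO replicate 3 and 2 lowest. Among all genes with at least 10 counts in the other 5 embryos, 34.9% were highest there and 38.2% lowest. The sum of the 22 was 2006 TMM-scaled counts per 1e6 against 908 to 1207 in the others. The proliferation marker Mki67 had 663 in this embryo and 151 to 268 in the others, and Top2a, the topoisomerase of dividing cells, had 340 against 131 to 204. Rrm1, a subunit of ribonucleotide reductase, had 162 against 101 to 141. On this scale these 3 genes exceeded every other embryo, while Pcna, the replication clamp, named after its values were seen, was lowest there with 38.3 against 39.0 to 55.1. By total counts Rrm1 was not highest in Bahd1-KO replicate 3, with 8741 counts against 9237 in Bahd1-KO replicate 1, the library of lowest depth. None of the 22 passed the genotype test, 16 had a log2 fold change above 0 (median 0.22), and the median was 0.003 without that embryo. The part of cell division, as of the lung, heart and muscle markers given above, in the histone levels of this library was not tested.

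Replication-independent histone genes encode variants that are mostly expressed outside S phase too and from tailed mRNAs, although H2afx can also give a hairpin-ended mRNA. Among 11 genes listed, 0 passed the genotype test, 3 had a log2 fold change above 0 and 8 below, with a median of -0.41, and of -0.14 without Bahd1-KO replicate 3. H3f3b, which encodes H3.3, had 949, 778 and 760 TMM-scaled counts per 1e6 in the knockouts and 868, 649 and 777 in the wild types. H1f0, the linker histone of resting cells, had 139, 143 and 212 in the knockouts and 128, 163 and 189 in the wild types. H2afy2, a macroH2A gene, had 146, 187 and 36.3 in the knockouts and 167, 163 and 219 in the wild types. In contrast to the 18 of 26 members, 2 of these 11 genes were highest in Bahd1-KO replicate 3 and 7 lowest.

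No gene that makes, processes or degrades histone mRNA passed the genotype test. Of 20 listed, 19 were in the table under the symbol used and were tested, and 7 had a log2 fold change above 0 and 12 below (median -0.08, and 0.06 without Bahd1-KO replicate 3). Slbp, for the stem-loop binding protein, named after its values were seen, had 38.6, 33.4 and 46.8 TMM-scaled counts per 1e6 in the knockouts and 36.2, 30.4 and 35.2 in the wild types (log2 fold change 0.22, SE 0.240, edgeR adjusted p = 0.758, and 0.07 without Bahd1-KO replicate 3). The 3 highest of the list were Zcchc11, a terminal uridylyltransferase, Cstf2, a cleavage stimulation factor, and Srrt, with log2 fold changes of 0.20, -0.01 and -0.55, or 0.18, 0.14 and -0.51 without that embryo. Among 10 histone chaperones, 0 passed and 5 lay on each side of 0 (median -0.08, and -0.12 without Bahd1-KO replicate 3), with Atrx, Nap1l1 and Nasp as the highest 3 at 0.09, 0.34 and 0.03, or 0.17, 0.27 and 0.24 without that embryo.

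The promoters of the members share motifs that the choice by symbol did not use. RefSeq promoter windows (GRCm38.p6, 250 bases before to 50 after the start) were matched for 62 of the 70 members and searched on both strands. A CCAAT motif was present in 85.5% of them and in 37.9% of all 27025 promoters, TATAAA in 56.5% and 14.2%, and the octamer ATTTGCAT in 21.0% and 1.8%. CCAAT was found in all 6 H1, 18 H2A, 16 H2B and 10 H3 windows but in 3 of 12 H4 windows, and the octamer in 7 H2A and 6 H2B windows and in none of H1, H3 or H4. Many of these windows overlap, because 30 members form 15 divergent pairs whose gene models lie 172 to 659 bases apart, 14 of them an H2A gene beside an H2B gene. A motif match is no evidence of binding.

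The partners of one such pair stood on opposite sides of the other embryos in Bahd1-KO replicate 3. The gap of 172 bases between Hist3h2a and the H2B pseudogene Hist3h2bb-ps lies within the window shown here (chr11:58954435-58954734, plus strand, GRCm38.p6), with the octamer (read on the other strand), the CCAAT motif read on the other strand and CCAAT itself in capitals.
Hist3h2a promoter: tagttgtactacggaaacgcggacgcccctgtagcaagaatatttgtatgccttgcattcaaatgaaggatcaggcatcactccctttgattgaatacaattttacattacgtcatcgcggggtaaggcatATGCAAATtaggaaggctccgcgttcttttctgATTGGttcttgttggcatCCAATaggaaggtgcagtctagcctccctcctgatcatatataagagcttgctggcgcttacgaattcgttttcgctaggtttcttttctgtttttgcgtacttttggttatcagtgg
Hist3h2a stood at 0.238 of the median of the other embryos and Hist3h2bb-ps, chosen after its values were seen, at 4.68. The pseudogene had 4, 18 and 40 counts in the knockouts and 7, 15 and 16 in the wild types. The pair Hist1h2ac and Hist1h2bc, with 250 bases between them, had ratios of 1.48 and 4.34. In these pairs the partners differed in level and in ratio, and strand-specific counting keeps the 2 genes of such a pair apart.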

How the data were processed

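Polyadenylated RNA of 6 embryonic brains was sequenced in stranded libraries. The paper's methods give single-end reads of 65 bases, and its supplement also describes a paired-end run. The authors aligned the reads to GRCm38 and counted them per Ensembl gene with featureCounts (1.4.6-p3), and they deposited raw read counts, 1 column per embryo with its technical runs merged. Adapter trimming used cutadapt (1.11) per the labels. STAR (2.5.0a) and TopHat2 are both named for alignment, and which of them made the table is not stated. Poly(A) selection captures untailed histone mRNA poorly, and position-based counting can lose reads that fit several copies.

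The edgeR quasi-likelihood test (version 4.0.16, R 4.3.3) compared the genotypes, two-sided, for genes whose counts summed to 10 or more, with TMM factors and Benjamini-Hochberg adjustment over all genes (threshold 0.05). The script was tested on simulated data. Since each library is 1 embryo, p-values measure the spread between embryos. Levels are counts divided by TMM-scaled library size, per 1e6. Depth ran from 61.7 to 91.8 per library in units of 1e6 counts. DESeq2 1.42.0 and voom (limma 3.58.1) served as alternatives, with other factors and filters, the replicate block and each embryo left out in turn. DESeq2 without Bahd1-KO replicate 3 was chosen after seeing the data. Gene models came from GENCODE M21 (GRCm38, 53706 genes matched) and promoters from RefSeq (GRCm38.p6). Unique sequence was the share of 65-base stretches of a gene's transcripts found in no other gene, on either strand.

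The members and lists were chosen with earlier results of these data known. Genes named with values in every embryo were, in each histone type, the 2 with the highest mean level and the 2 with the largest fold change among those with a mean of at least 1, together with members past the threshold and 5 genes known for tailed mRNA. List genes were named if among the 3 highest or under an unadjusted p of 0.05. Other genes were chosen after their values were seen.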

Additional observations from a re-analysis of the deposited data

How the results depend on the processing

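No histone gene passed the adjusted threshold under any alternative run. Runs that called 0 genes over the whole table missed the knocked-out gene Bahd1 too, so a lack of called members there says little. The replicate block moved the genes called over the whole table from 1 to 0 and changed no call of a member (same-numbered embryos correlated at 0.12, 0.18 and -0.09, so the numbers did not pair them). Leaving out ribosomal, mitochondrial and small RNA genes also gave 0 genes called, DESeq2 8, voom with quality weights 6, DESeq2 without Bahd1-KO replicate 3 gave 11, and leaving out 1 embryo 0 to 4. Members under an unadjusted p of 0.05 were 3 of 56 without the count filter (5.96% of all genes), 1 of 33 with voom (8.95%) and 1 of 26 with DESeq2 without Bahd1-KO replicate 3 (0.724%; Hist1h1c, lower, in both), and 0 to 7 with 1 embryo left out. The 7, of 31, came without Bahd1-KO replicate 2, where 20.2% of all genes were under that p, and 3 of 31 without Bahd1-KO replicate 1 (10.1%). Members without overlap numbered 0 with filterByExpr and 0 to 7 with 1 embryo left out, where fewer embryos separate more easily. The share of all genes without overlap was not computed for these runs, so these counts are no result about the members. The members' median log2 fold change was 0.18 with voom, 0.069 with DESeq2 without Bahd1-KO replicate 3 and 0.083 to 1.46 with 1 embryo left out, the lowest without Bahd1-KO replicate 3 and the highest without replicate 2. Total-count scaling shifted the median of all genes from 0.06 to -0.11 and upper-quartile factors to 0.17.

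Of 208 log2 fold changes of 13 named genes under alternatives, 35 reversed and none passed the threshold. Hist1h1c came to -0.015 without the filter, -0.16 with the block, -0.0063 without ribosomal, mitochondrial and small RNA genes, -0.35 with total counts and -0.82 with voom. Total counts gave -0.067 for Hist1h4i and -0.10 for Hist2h2be. Voom gave -0.44 for Hist1h1e, 0.38 for Hist2h3c2, -0.21 for Hist2h4, 0.26 for Hist3h2a and -0.75 for Hist4h4. DESeq2 without Bahd1-KO replicate 3 gave -0.73 for Hist1h1c, -0.58 for Hist1h1e, -0.017 for Hist1h2bc, -0.012 for Hist1h4i, 0.048 for Hist2h3c2, -0.12 for Hist2h4, 0.15 for Hist3h2a and -0.92 for Hist4h4. With 1 embryo left out, the values ran from -0.73 to 0.29 for Hist1h1c, -0.57 to 3.60 for Hist1h1e, -0.014 to 1.37 for Hist1h2bc, -0.048 to 0.55 for Hist1h4i, -0.12 to 0.16 for Hist2h2be, -0.49 to 0.19 for Hist2h3c2, -0.13 to 1.23 for Hist2h4, -0.59 to 0.16 for Hist3h2a and -0.91 to 1.33 for Hist4h4. The bound on the far side of 0 came without Bahd1-KO replicate 3, except for Hist1h4i (without Bahd1-WT replicate 1), Hist2h2be (without Bahd1-KO replicate 1) and Hist2h3c2 (without Bahd1-WT replicate 3). The causes of these reversals were not tested, apart from the embryo left out.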

Other observations

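Replicate 1 was the lowest wild-type embryo and was below replicate 2 of the knockouts for a few histone genes, chosen after their values were seen, while Bahd1-KO replicate 3 was lower still. Hist3h2ba had 5.96, 9.90 and 17.4 TMM-scaled counts per 1e6 in wild-type replicates 1 to 3 and 4.01, 13.6 and 0.649 in the knockouts. The linker histone variant gene H1fx had 4.14, 18.9 and 14.0 in the wild types and 1.59, 11.4 and 0.853 in the knockouts, and H2afx had 15.6, 26.2 and 39.9 in the wild types and 12.6, 30.1 and 11.5 in the knockouts. No difference between replicate numbers was tested.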
